A study of Mus musculus with 5 samples.

Results

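The neutrophils described here are 94 single-cell wells in which the calprotectin genes S100a8 and S100a9 together took at least 1000 of every 10000 unique molecular identifiers (UMIs, each counting one captured mRNA), spike-in transcripts left out. They were chosen from the 1490 wells that had been sorted with a cell and held at least 200 UMIs; the other 1396 of these wells serve as the comparison, and 1900 wells were sorted with a cell in all. The cells came from brains of DM-hTAU mice, which model tauopathy and carry human tau with a pair of disease mutations under the natural tau promoter. By their labels all 5 libraries (AB5863, AB5864, AB5865, AB5867 and AB5876, replicates 1 to 5) came from animals treated with anti-PD-L1, an antibody that blocks the checkpoint ligand PD-L1, and 9 months of age. The sort was for CD45 and CD11b, given as positive in the labels and as high in the study, and the profiling by MARS-seq, a plate-based 3′-end method. One protocol among the labels covers thymus and small intestine, against the brain that the tissue label gives. No library is labelled with the control antibody, so that no treatment can be compared, and nothing ties the libraries to separate mice; the spread between libraries may be technical.

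Neutrophils are short-lived granulocytes made in the bone marrow. Their granule proteins are transcribed in sequence during maturation: myeloperoxidase and elastase of the primary granules first, lactoferrin, lipocalin and the cathelicidin of the secondary granules next, then the gelatinases of the tertiary granules, and last the receptors for chemoattractants. The circulating cell holds little RNA, of which the calprotectin subunits S100A8 and S100A9 are an abundant part. In the brain they are mostly found in vessels and meninges, and enter the tissue in injury or inflammation.

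The share of S100a8 and S100a9 chose the wells, so the classes differ in it by construction and it is given as a description. It ran from 1044 to 3750 per 10000 in the neutrophil wells, with a median of 2304. Of the other wells, 1382 lay under 300 per 10000, 9 from 300 to under 500, and 5 from 500 to under 1000. The wells just outside the limit had 591, 616, 723, 806 and 853 per 10000, and those just inside it 1044, 1140, 1168, 1171 and 1181. None of the 5 wells just outside had a UMI of Ngp, Camp, Ltf or Lcn2, while 3 of them had 4 to 7 UMIs of Retnlg. S100a8 (chr3:90668978-90670035, plus strand, GRCm38) gave 4720 UMIs in the neutrophil wells and S100a9 (chr3:90692632-90695721, minus strand) 5561. The ratio of S100a9 to S100a8 was 1.15 ± 0.126 (SD, n = 5 libraries), from 1.01 in AB5865 to 1.29 in AB5864.

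**Figure D1:**
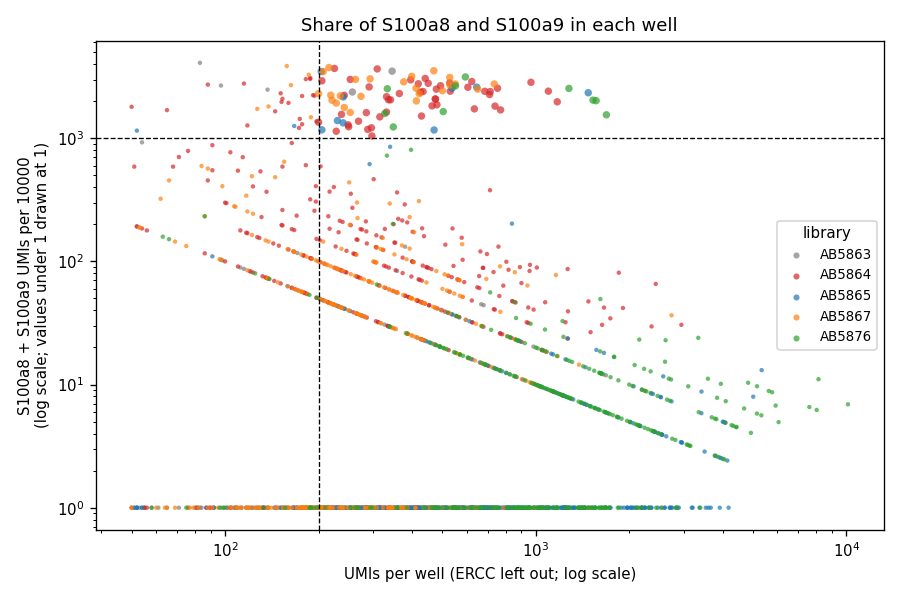
Share of S100a8 and S100a9 (UMIs per 10000, log scale, values under 1 drawn at 1) against the UMIs of each well (log scale), 1 point per well of at least 50 UMIs, coloured by library. Dashed lines mark 200 UMIs and 1000 per 10000; the 94 neutrophil wells at the upper right are drawn larger and lie above the 5 wells from 500 to under 1000 per 10000.

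The label was checked against markers that the rule did not use. Ngp was found in 65 of the 94 wells, Camp in 60, Lcn2 in 76 and Retnlg in 65, and at least 2 of these 4 were found in 85.1% of neutrophil wells against 6.09% of other wells. Only 3 neutrophil wells, of 205 to 250 UMIs, had none. The microglia list (13 genes) summed to 63.4 UMIs per 10000 in neutrophil wells, from 27.5 to 143 over the libraries, and to 274 in other wells. These and later levels per 10000 of single genes and lists are relative to the UMIs of genes other than S100a8 and S100a9, 34682 in the neutrophil wells. Of the 94 wells, 15 had no UMI of the microglia list, and 3 reached the median of the other wells, 278 per 10000. The mast cell or basophil, erythrocyte, platelet, astrocyte and neuron lists were at 0 in neutrophil wells, which allows up to 0.865 per 10000. In other wells these lists stood at 0.00768 (erythrocyte) to 0.215 (platelet), under that limit, so their zeros do not tell the classes apart. The eosinophil list had 5 UMIs, 4 of them of Ear2, and was at 1.44 per 10000 against 0.614 in other wells. The T or NK cell and dendritic cell lists had 1 UMI each, the oligodendrocyte list 2, the endothelial cell list 3 and the B cell list 10. Per 10000 these were 0.288, 0.288, 0.577, 0.865 and 2.88, against 0.676, 4.60, 0.584, 2.92 and 2.84 in other wells.

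The wells were unevenly spread over the libraries. There were 2 neutrophil wells among 274 in AB5863, 49 among 250 in AB5864, 9 among 357 in AB5865, 24 among 260 in AB5867 and 10 among 349 in AB5876. As shares these are 0.730%, 19.6%, 2.52%, 9.23% and 2.87%, with a mean of 6.99% ± 7.75 (SD, n = 5). The exact binomial interval was 14.9 to 25.1% in AB5864 and 0.0885 to 2.61% in AB5863. The interval of AB5867, 6.004 to 13.4%, lay between these and overlapped neither. As shares of all UMIs, S100a8 and S100a9 were at 4.74, 72.8, 4.53, 37.7 and 8.25 per 10000 in the other wells of the same libraries, highest in the 2 libraries with the most neutrophil wells. The 20 empty wells held 2 to 68 UMIs each and 3 UMIs of S100a8 and S100a9 in all. Each library used the same 384 well barcodes and no well identifier was shared between libraries. The libraries held from 128201 to 549824 UMIs in all wells and shared a sequencing batch. Intervals here cover counting error only.

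Neutrophil wells were shallow. They held 200 to 1690 UMIs with a median of 405.5, against a median of 581 in other wells, and 64 of the 94 had fewer than 500. Within libraries the medians for neutrophil and other wells were 301 and 371 UMIs in AB5863, 426 and 401 in AB5864, 240 and 951.5 in AB5865, 334.5 and 352.5 in AB5867, and 573 and 1171 in AB5876. In AB5864 and AB5867 the classes differed little, whereas in AB5865 and AB5876 the neutrophil wells were much the shallower. Over the 4 libraries with at least 5 neutrophil wells, the ratio of medians was 0.594 (log2 ratio -0.75 ± 0.96, SD; exact sign-flip permutation test over libraries, two-sided, p = 0.375, adjusted p = 0.375), and 4 libraries cannot give a p below 0.125. Wells meeting the share of the rule made up 10.8% of all wells from 200 to under 300 UMIs, 8.64% from 300 to under 500, 5.68% from 500 to under 1000 and 1.67% at 1000 or more. The exact 95% intervals at the ends, 7.54 to 14.8% and 0.673 to 3.40%, do not overlap, although these bins also draw on different libraries.

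Genes per well and the shares of ribosomal protein and mitochondrial transcripts had lower medians in the neutrophil wells of each of the 4 libraries tested. In AB5863, with 2 neutrophil wells and in no test, the mitochondrial median was higher, 10.4% against 8.30%, and the ribosomal one lower, 1.95% against 3.89%. Thinned to 200 UMIs without S100a8 and S100a9, neutrophil wells showed a median of 109, 120, 108 and 129 genes in AB5864, AB5865, AB5867 and AB5876, and other wells 130, 148, 125 and 142. The difference was -19.75 ± 6.40 genes (SD, n = 4; exact sign-flip permutation test, p = 0.125, adjusted p = 0.167, the smallest possible p); 20 neutrophil and 3 other wells were too shallow to be thinned, and without thinning the medians over all wells were 148 and 299.5 genes. Transcripts of ribosomal protein genes took 1.52, 1.44, 1.31 and 1.45% of UMIs other than S100a8 and S100a9 in the median of neutrophil wells against 4.65, 3.98, 3.39 and 3.44% in other wells, a difference of -2.43 ± 0.518 percentage points (exact sign-flip permutation test, p = 0.125, adjusted p = 0.167). Mitochondrial transcripts took 6, 8.17, 7.63 and 6.81% against 8.78, 9.30, 9.29 and 9.83%, a difference of -2.15 ± 0.898 points with the same exact permutation p = 0.125 (adjusted p = 0.167). Every neutrophil median of the ribosomal share lay below every median of the other wells, yet the test with 4 libraries cannot reach 0.05.

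The leading genes of the secondary granules were each found in at least 49 of the 94 wells. Ngp, neutrophilic granule protein, Camp, the cathelicidin precursor, Ltf, the iron-binding lactoferrin, and Lcn2, the siderophore-binding lipocalin, gave 1318, 894, 455 and 570 UMIs. Camp, Ngp and Ltf lie on chromosome 9 (Camp chr9:109847379-109849617, minus strand; Ngp chr9:110419747-110423012, plus strand; Ltf chr9:111019271-111042767, plus strand), and Lcn2 on chromosome 2 (chr2:32384633-32388252, minus strand). Because the sum of these 4 genes is used below to describe how the wells differ, their RefSeq promoters (GRCm38.p6, 250 bases before to 50 after the start) are shown, with capitals at matches to TTGCNNAA or, on the other strand, TTNNGCAA, a form of the site of the C/EBP factors, which act in the granulocyte lineage; both spellings were searched and a base may belong to both.
Ngp (chr9:110419558-110419857, plus strand): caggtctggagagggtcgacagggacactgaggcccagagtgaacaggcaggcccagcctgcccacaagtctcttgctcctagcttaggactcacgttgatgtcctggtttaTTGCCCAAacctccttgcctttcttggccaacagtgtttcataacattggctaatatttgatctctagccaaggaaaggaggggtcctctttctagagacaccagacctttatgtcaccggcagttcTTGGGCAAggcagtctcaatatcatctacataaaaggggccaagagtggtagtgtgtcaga
Ltf (chr9:111019042-111019341, plus strand): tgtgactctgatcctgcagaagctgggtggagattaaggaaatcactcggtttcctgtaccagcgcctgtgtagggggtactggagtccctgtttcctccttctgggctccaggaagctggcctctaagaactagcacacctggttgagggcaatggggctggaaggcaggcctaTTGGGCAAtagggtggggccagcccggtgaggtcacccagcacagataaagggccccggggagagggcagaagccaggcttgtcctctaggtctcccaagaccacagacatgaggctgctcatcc
Lcn2 (chr2:32387690-32387989, minus strand): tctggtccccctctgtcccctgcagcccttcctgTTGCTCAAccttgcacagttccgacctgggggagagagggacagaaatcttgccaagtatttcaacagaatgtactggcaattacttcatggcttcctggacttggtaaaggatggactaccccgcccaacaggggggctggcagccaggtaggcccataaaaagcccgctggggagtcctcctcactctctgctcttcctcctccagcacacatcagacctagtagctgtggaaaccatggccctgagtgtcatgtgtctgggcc
Camp (chr9:109849407-109849706, minus strand): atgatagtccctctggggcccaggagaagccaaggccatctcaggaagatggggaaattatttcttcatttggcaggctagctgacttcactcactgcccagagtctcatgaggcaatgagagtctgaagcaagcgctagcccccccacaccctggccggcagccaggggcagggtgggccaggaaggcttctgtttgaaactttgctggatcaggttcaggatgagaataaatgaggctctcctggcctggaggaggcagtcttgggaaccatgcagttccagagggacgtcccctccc
The Ngp promoter held matches beginning 138 and 11 bases before the start, that of Ltf a match 75 bases and that of Lcn2 a match 216 bases before it, and the Camp window held none. Such a match was present in 10.8% of all 32851 promoters, in 10.3% of the 1199 promoters of the genes tested below and in 14 of the 81 promoters, 17.3%, of genes that were higher in neutrophil wells; these are matches of letters only.

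To ask what other genes set these wells apart, the UMIs of each class were added up within a library, and the sums were tested in edgeR (quasi-likelihood F-test, library as a block) over the 4 libraries with at least 5 neutrophil wells (92 wells). S100a8 and S100a9 were left out, because they chose the wells; the p-values do not allow for the choice of wells by genes of the same cell type, and rest on 3 residual degrees of freedom for each gene, moderated over all genes. Of 1446 genes tested, 94 were higher (6.50%) and 329 lower (22.8%) at an adjusted p under 0.05. A gene passed the filter on low counts by its level in either class. Genes near 0 in other wells, Ly6g, Cd177, Mmp9, Cxcr2, Chil1 and Itgb2l below among them, passed only through the neutrophil wells. They could hardly be called lower and are counted in the 6.50%. Their calls, and the counts of calls in the lists that hold them, are therefore best read as descriptions. Without the filter, 47 of 17213 genes were higher. The median log2 fold change over all genes tested was -0.96, and with library sizes in place of TMM factors it was -0.33, a shift of 0.63; with that scaling 154 genes were higher and 189 lower, so that 44.9% of calls were rises in place of 22.2%. Of the 94 rises 93 were also called with library sizes, and of the 329 falls 189. Fold changes are therefore best read against the median of -0.96.

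All 9 secondary granule genes were higher, against 6.50% of all genes tested, with a median log2 fold change of 6.52 beside -0.96 over all genes. Ngp stood at 407, 54.0, 455 and 398 UMIs per 10000 in the neutrophil wells of AB5864, AB5865, AB5867 and AB5876, and at 9.55, 0.0463, 3.56 and 0.651 in their other wells (log2 fold change 7.01 ± 0.74, SE; edgeR adjusted p = 2.2e-18). Camp stood at 242, 9.00, 360 and 321 against 3.80, 0, 2.31 and 0.558 (7.11 ± 0.79, edgeR adjusted p = 5.8e-17). The 2 classes did not overlap for either gene, but AB5865 was far below the other libraries for both. Ltf was at 156, 0, 137 and 124 per 10000 against 3.52, 0, 1.15 and 0.279 (6.52 ± 0.84, edgeR adjusted p = 1.2e-12), and at 0 in both classes of AB5865. Lcn2, at 192, 69.0, 163 and 140 against 4.27, 0.0463, 2.50 and 0.279, was the most even of the 4 (6.73 ± 0.74, edgeR adjusted p = 4.9e-17). The neutrophil surface antigen Cd177 (7.25 ± 0.93), the haptoglobin gene Hp (5.60 ± 0.82), the peptidoglycan-binding Pglyrp1 (4.85 ± 0.68), Olfm4 (5.37 ± 1.02) and the chitinase-like Chil3 (4.51 ± 0.69) made up the rest of the list. In the 2 neutrophil wells of AB5863, which entered no test, Ngp stood at 381, Camp at 262, Ltf at 167 and Lcn2 at 167 per 10000.

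Primary granule genes were missing. Mpo, myeloperoxidase, Elane, neutrophil elastase, Prtn3, Ctsg, Prss57 and Bpi had 0 UMIs in all 94 wells, and Ms4a3 had 1; none reached the test. A count of 0 allows up to 0.865 per 10000. In other wells the 7 genes together were at 0.691 per 10000, below that limit, so the zeros show no difference between the classes. The factors that drive granulocyte differentiation, Cebpe and Gfi1, were at 0 in every well of the series above 200 UMIs, so these wells hold no comparison for them, and Cebpa had 1 UMI. Cebpb and Spi1, with 12 UMIs each, Junb and Fos were tested and did not pass. Of 9 cell cycle genes, Mki67, Top2a, Cdk1, Stmn1 and Tubb5 were at 0 and Birc5 and Ccnb2 had 1 UMI each. In other wells Mki67, Top2a, Cdk1 and Stmn1 were at 0.338, 0.384, 0.0998 and 0.376 per 10000, below what a 0 allows. Their zeros therefore show no difference between the classes. The whole list was at 5.19 per 10000 in neutrophil and 8.43 in other wells. Tubb5 was lower (edgeR adjusted p = 0.020), by at least 3.10-fold when set against 3 counts. Its call was lost with library sizes and without AB5864 (replicate 2). No cell cycle gene was called lower without the library block, with minimums of 300 or 500 UMIs, or without replicate 3 or 5. Among the other wells, 1 well of AB5864 with 1268 UMIs, picked out after the values were seen, held 48 UMIs of primary granule genes, 22 of them Mpo and 15 Elane, at 86.8 per 10000 of S100a8 and S100a9 and with no UMI of Ngp, Camp, Ltf or Lcn2. It was thus outside the class.

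**Figure D2:**
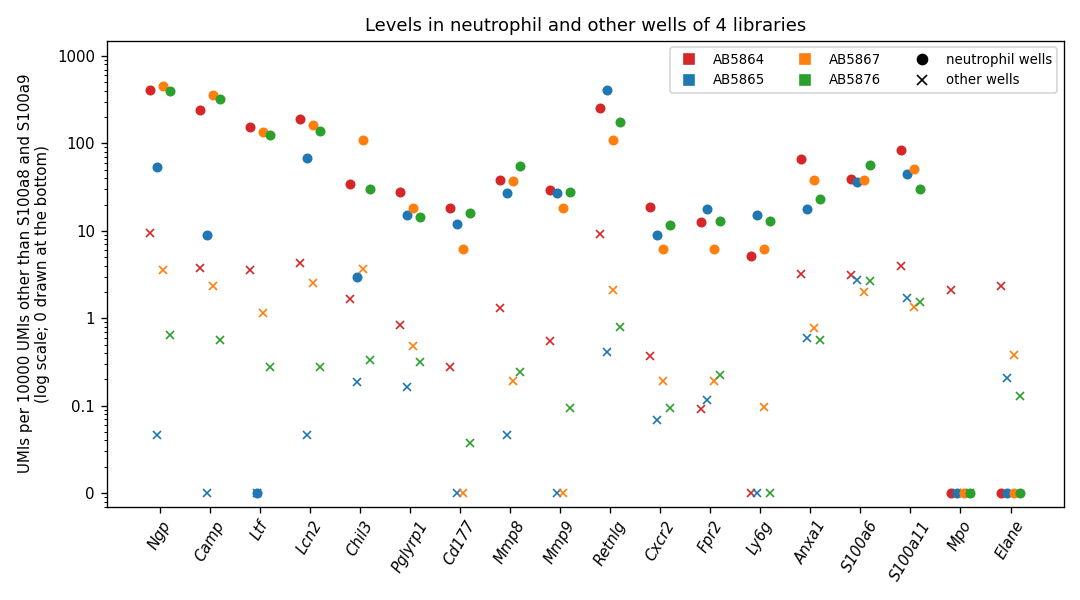
UMIs per 10000 other than S100a8 and S100a9 (log scale, 0 drawn at the bottom) in the summed neutrophil wells (circles) and other wells (crosses) of the 4 libraries tested. The circles lie above the crosses of the same library for every gene but Ltf in AB5865 and the primary granule genes Mpo and Elane, whose circles are all at 0. The circles of AB5865 are lowest for Ngp, Camp, Ltf, Lcn2 and Chil3, and by less also for Mmp8, Anxa1 and S100a6.

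Of 4 genes tested from the list used for tertiary granules 3 were higher, against 6.50% of all genes tested. The neutrophil collagenase Mmp8 was at 38.3, 27.0, 36.9 and 55.0 per 10000 in the order above, against 0.0463 to 1.30 in other wells (6.40 ± 0.70, edgeR adjusted p = 2.5e-17), and the gelatinase Mmp9 at 29.1, 27.0, 18.4 and 27.5 against 0 to 0.556 (7.24 ± 0.74, edgeR adjusted p = 4.8e-19). AB5865 did not stand apart for either. Mmp25 was higher too, at 13 UMIs (4.26 ± 1.17, edgeR adjusted p = 0.0035), Slc11a1 did not pass (-0.31 ± 0.82) and Adam8, with 3 UMIs, was not tested.

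Of the 17 genes of late maturation and chemotaxis, 14 were tested and 10 were higher, against 6.50% of all genes tested, with a median of 4.07. None was lower, but those near 0 in other wells could hardly have been. Stfa2l1, Ly6g, Il1r2, Fpr1, Cxcr2 and Fpr2 are such genes, so the count is a description. Retnlg, a resistin-like secreted protein (chr16:48872621-48874496, plus strand), was at 255, 405, 109 and 176 per 10000 against 9.09, 0.416, 2.12 and 0.800 (6.28 ± 0.72, edgeR adjusted p = 7.4e-16), and here AB5865 was the highest. With library sizes in place of TMM its fold change was 6.95 and its adjusted p = 0.0611 by edgeR, so that 3 of the 4 neutrophil markers outside the rule, in place of all 4, were then called. Ly6g, a surface antigen of mouse neutrophils, had 27 UMIs in neutrophil wells and 1 in other wells of these libraries, a ratio of 931 with a counting interval of 154 to 38129 (log2 fold change 8.26 ± 1.14, edgeR adjusted p = 6.5e-11). The chemokine receptor Cxcr2 was at 18.8, 9.00, 6.15 and 11.6 per 10000 (5.48 ± 0.84), and the formyl peptide receptors Fpr2 (5.45 ± 0.83) and Fpr1 (4.41 ± 1.30), the decoy receptor Il1r2 (3.85 ± 1.47), Msrb1 (3.73 ± 0.69), Mxd1 (3.16 ± 0.93) and Stfa2l1 (6.29 ± 1.50) were higher as well. Csf3r, the G-CSF receptor, had 10 UMIs (0.56 ± 0.94), and Alox5ap, Cxcr4 and Clec4e did not pass either. Alox5ap was called higher with library sizes, without the library block and without AB5867 (replicate 4). With neutrophil wells taken from a share of 500 per 10000, Alox5ap and Clec4e were both called higher. Many of these values rest on few wells: the 48 UMIs of Cxcr2 came from 17 wells, and 14 UMIs from a single well. The call of Mxd1 was lost without AB5865 (replicate 3), and those of Mxd1, Fpr1, Il1r2 and, above, Mmp25 without the filter on low counts. That of Il1r2 was also lost with a minimum of 300 UMIs and with a share of at least 2000 per 10000.

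Outside these lists, Chil1, with 21 UMIs against 1 (ratio 724, counting interval 116 to 29955), Itgb2l, the β2-like integrin, with 18 against 1 (621, 98.0 to 25868), and Wfdc21, a whey acidic protein family member with 195 UMIs (6.40 ± 0.71), were among the 10 largest rises that held in every library, beside Ly6g, Cd177, Mmp9, Camp, Ngp, Lcn2 and Mmp8. Of all 94 rises, 70 held in each of the 4 libraries. Fbxw27 (chr9:109766045-109790670, minus strand; chosen after its values were seen) would have been among them but for AB5865. It lies 56708 bases downstream of Camp on the same strand and its UMIs followed those of Camp over the 94 wells (Spearman's rho 0.70, a description). Gm7665, a pseudogene row also named after its values were seen, followed S100a11 in the same way (rho 0.71), so that the counts of such rows are uncertain.

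The annexins and S100 partners were split. Anxa1, annexin A1, which carries an anti-inflammatory peptide, was at 66.8, 18.0, 38.4 and 23.1 per 10000 against 3.25, 0.601, 0.770 and 0.558 (4.37 ± 0.64, edgeR adjusted p = 8.5e-10). S100a11 (3.94 ± 0.63), S100a6 (3.30 ± 0.60) and Anxa2 (1.88 ± 0.74) were higher, whereas Anxa3 (-0.42 ± 0.88) and S100a4 (-2.43 ± 1.05, 3 UMIs) did not pass and S100a10 was at 0. S100a4 was called lower with DESeq2, with neutrophil wells from a share of 500 per 10000, and against other wells under 100 per 10000 only. The call of Anxa2 was lost on leaving out any of the 4 libraries. Of the oxidase that makes superoxide, the small GTPase Rac2 (2.87 ± 0.58) and the organizer Ncf1 (1.68 ± 0.64) were higher, and neither was without the filter on low counts. The membrane subunits Cybb (0.37 ± 0.59) and Cyba (0.50 ± 0.61) did not pass, and Ncf4 was not tested. Cyba was called higher without the library block. Of the 55 UMIs of Ncf1, 22 came from a single well of AB5864, and its call was lost without AB5864 (replicate 2) and without AB5876 (replicate 5).

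Of 12 inflammatory mediators 6 were tested, 2 were higher and 2 lower, against 6.50% and 22.8% of all genes tested. The list summed to 43.8 per 10000 in neutrophil wells and 11.4 in other wells, and without Ccl6, which gave 97 of its 152 UMIs, to 15.9 and 7.60. Il1rn, the interleukin 1 receptor antagonist, with 27 UMIs (4.08 ± 1.01, edgeR adjusted p = 0.0010), and the chemokine Ccl6 with 97 (1.85 ± 0.58, edgeR adjusted p = 0.0098) were higher. The call of Ccl6 was lost without AB5864 (replicate 2) or AB5876 (replicate 5), and both calls were lost without the filter on low counts and with wells of at least 2000 per 10000 of S100a8 and S100a9 only. Il1b had 16 UMIs (1.57 ± 0.90, edgeR adjusted p = 0.17), and passed with library sizes in place of TMM. The chemokines Ccl3 and Ccl4 had 0 UMIs against 273 and 221 in the other wells of the 4 libraries, at least 2.64- and 2.14-fold lower when set against 3 counts over the neutrophil wells. Both passed (edgeR adjusted p = 0.012 and 0.015), but the call of Ccl3 was lost without AB5864 or AB5876. Ccl4 was not called in these settings either, and neither gene was with a minimum of 500 UMIs. Ccl4 reached the test in only 10 alternatives, against 13 for Ccl3. Il1a, Ptgs2 and Cxcl10 were at 0 as well, Tnf had 2 UMIs, Cxcl2 4 and Ccrl2 1, and none of these was tested. Of 12 interferon response genes 3 were tested. Ifitm6 (3.73 ± 0.66) was higher, against 6.50% of all genes tested, and Ifitm3 and Irf7 did not pass. The other 9 had 1 to 9 UMIs each and were not tested.

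**Figure D3:**
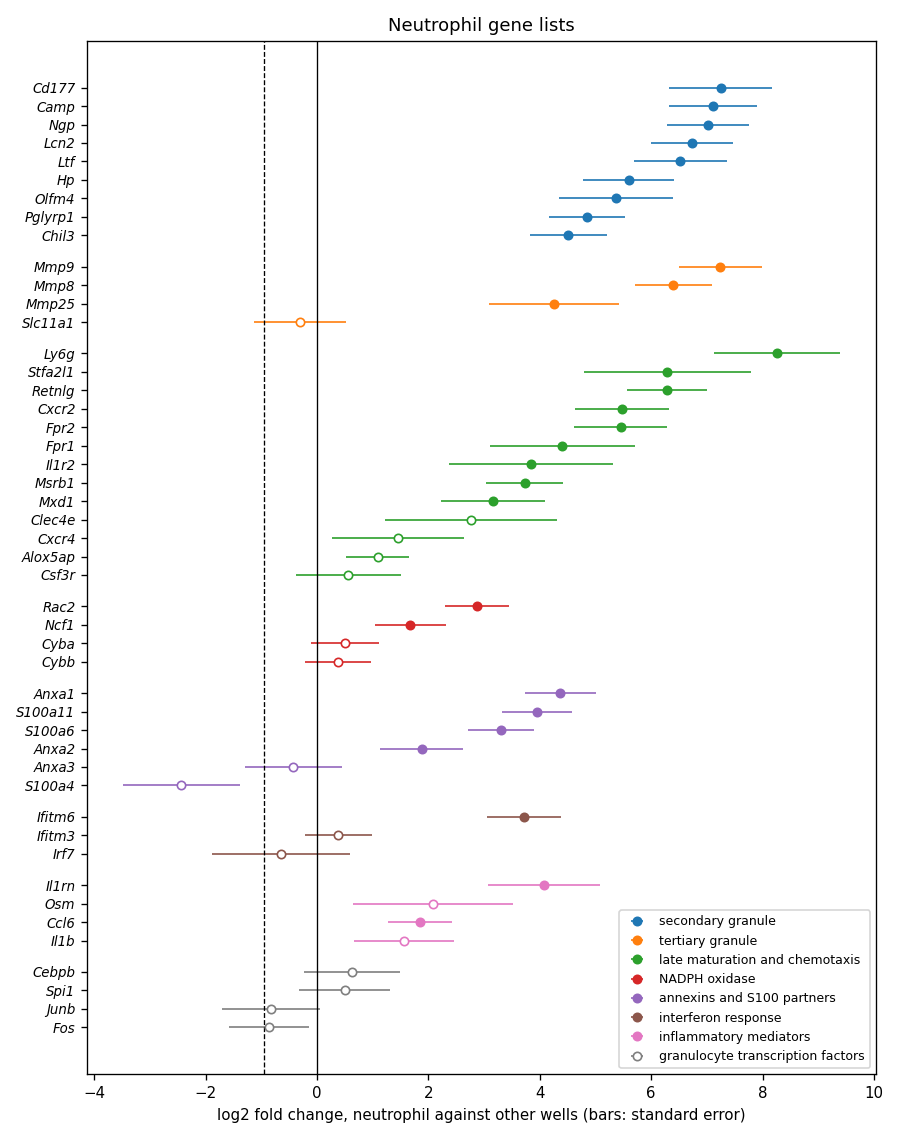
Log2 fold change of neutrophil against other wells (points; bars, standard error from edgeR over 4 libraries) for tested genes of 8 lists with at least 1 UMI in neutrophil wells, each drawn once. Filled points passed an adjusted p of 0.05, open points did not, and the dashed line is the median of all 1446 genes, -0.96. Every secondary granule gene lies above 4, while Cybb, Cyba and the 4 transcription factors are open; with library sizes in place of TMM the median moves up by 0.63.

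Genes of microglia and of antigen presentation were among the 329 falls. All 13 microglia genes were lower, against 22.8% of all genes tested, with a median log2 fold change of -3.17 (-2.21 relative to the median of all genes), among them the complement genes C1qb (-3.17 ± 0.68) and C1qc (-3.73 ± 0.71), and Csf1r (-2.89 ± 0.66). All 6 MHC class II genes were lower too, against the same 22.8%, with a median of -3.31, led by Cd74 at 26 UMIs against 10943 (-3.80 ± 0.70). With library sizes in place of TMM, 12 of the 13 and 5 of the 6 were called. Of the microglia genes, 10 were called without AB5864 (replicate 2) and 9 without AB5876 (replicate 5), and of the MHC class II genes 5 without either. Of the 5 border macrophage genes tested, Apoe (-2.73 ± 0.62) and Mrc1 (-2.12 ± 0.86) were lower, against 22.8% of all genes tested. Ccr2 of the monocyte list was lower too (-2.40 ± 0.92). The call of Mrc1 was lost with library sizes and on leaving out any of the 4 libraries, and that of Ccr2 with library sizes and without AB5864, AB5865 or AB5876. Ly6c2, the Ly6C antigen that monocytes and neutrophils share, was higher with 59 UMIs (2.88 ± 0.61, edgeR adjusted p = 8.9e-05). Its call was lost without the filter on low counts. The monocyte list as a whole was at 21.3 per 10000 in neutrophil wells and 12.9 in other wells, but 59 of its 74 UMIs were of Ly6c2, and without that gene it was at 4.33 and 11.2. Ribosomal protein genes followed the shares above, with 40 of 58 lower, against 22.8% of all genes, and none higher (28 lower with library sizes).

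Of the 329 falls, 68 had no UMI in the neutrophil wells tested. The 10 largest falls that held in every library were all of this kind, and 3 counts over the 4 libraries serve as the limit for them. Clptm1, a membrane protein gene, was at least 21.4-fold lower, Fcgr1, the high-affinity IgG receptor, at least 5.02-fold, Crip1 at least 3.95-fold and Cd300c2 at least 3.51-fold. Rnaset2b was at least 2.76-fold lower; the remaining 5 are the pseudogene or unnamed rows AC151846.1, Rpl3-ps1, Gm20430, Rpl36a-ps1 and AC121872.2, at least 3.14- to 4.96-fold lower, whose reads may be shared with parent genes. Without AB5864 (replicate 2) Rnaset2b and AC121872.2 were not called.

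The wells differed from one another in granule genes. Ngp, Camp, Ltf and Lcn2 together ran from 0 to 2959 per 10000 over the 94 wells. With limits of 200 and 1000 per 10000, set after the values were seen, 32 wells were low, 27 in the middle and 35 high, and 13 of the low wells had none of the 4. Retnlg went the other way. It was found in 29 of the 32 low wells, 21 of the 27 in the middle and 15 of the 35 high wells, at 386, 310 and 93.1 UMIs per 10000 of the remaining genes, which leave out S100a8, S100a9 and the 4 granule genes. The same order was seen in AB5864 (417, 347 and 149) and in AB5867 (269, 247 and 31.9), the only libraries with at least 4 wells in each class. In AB5876, Retnlg was at 273 in 4 low wells and at 295 in 4 middle wells, against this order. Spearman's rho between Retnlg and the granule sum over wells was -0.55 in all 94, -0.55 in the 49 of AB5864 and -0.69 in the 24 of AB5867. These are given as a description, since wells of a library share a plate. Low wells held a median of 286.5 UMIs and high wells 476, so depth moved with the classes, and its part in them was not tested. The granule sum had a rho of 0.39 with UMIs per well over all 94 wells, 0.51 in AB5864 and 0.36 in AB5867, and Retnlg one of 0.062, 0.026 and -0.18. The share of S100a8 and S100a9 had a median of 1639 per 10000 in low, 2374 in middle and 2411 in high wells.

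**Figure D4:**
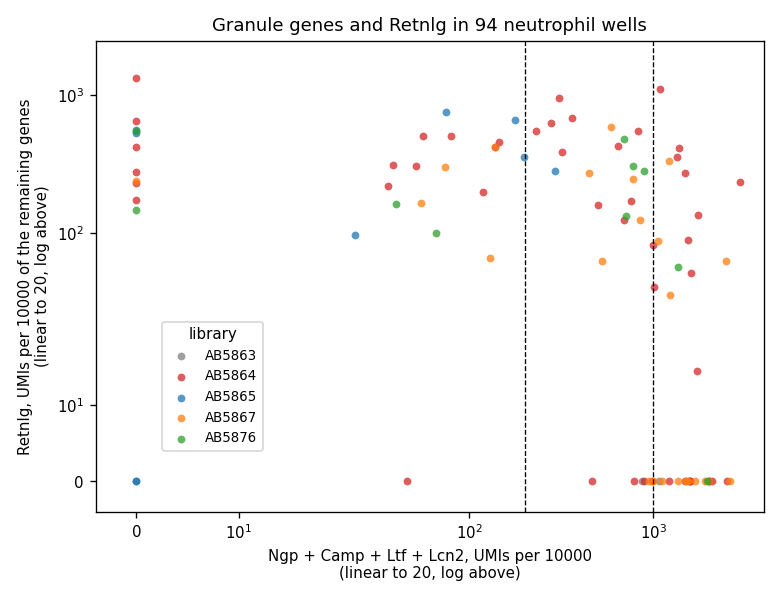
Retnlg (UMIs per 10000 of the remaining genes) against the sum of Ngp, Camp, Ltf and Lcn2 (UMIs per 10000) in each of the 94 neutrophil wells, coloured by library, both axes linear to 20 and logarithmic above. Dashed lines mark the limits of 200 and 1000; most of the 35 wells to the right lie at 0 for Retnlg and 29 of the 32 to the left lie above 0.

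Other genes followed either side, and are described without a test, as the classes were formed from these wells. Ordered with the granule genes were Chil3, at 2.17, 16.4 and 116 per 10000 in low, middle and high wells, Anxa1, at 14.1, 43.1 and 87.5, Wfdc21, at 29.2, 62.5 and 89.1, and Ifitm6, at 9.75, 24.6 and 36.1. This order did not hold in both libraries with at least 4 wells in each class. The order of Chil3 from low to high was also seen in AB5864 (0, 25.7 and 71.5), whereas AB5867 had 9.62, 7.71 and 203. Anxa1 (14.6, 51.3 and 129) and Ifitm6 (14.6, 27.6 and 50.2) kept it in AB5864, but in AB5867 both were highest in the middle class, at 19.2, 61.7 and 43.5 for Anxa1 and at 0, 23.1 and 8.71 for Ifitm6. Wfdc21 was at 43.7, 37.5 and 79.1 in AB5864 and at 19.2, 123 and 98.7 in AB5867. Ccl6 ran with Retnlg, at 79.1, 16.4 and 6.42 per 10000 (102, 27.6 and 9.13 in AB5864; 48.1, 0 and 5.81 in AB5867), and was found in 19 low wells but in 5 high ones. S100a11 (96.4, 86.1 and 36.1) and S100a6 (69.3, 49.2 and 26.5) were ordered alike, in AB5864 (146, 111 and 48.7 for S100a11) and in AB5867 (116, 84.8 and 29.0). In AB5876, low and middle wells had S100a11 at 32.1 and 54.6, S100a6 at 120 and 69.2, and Ccl6 at 88.2 and 7.28. The 14 UMIs of Stfa2l1 and 15 of the 16 of Il1b lay in low wells, but in 4 wells each. Of the 49 UMIs of Ncf1 in high wells (39.3 per 10000, against 3.25 in low wells), 22 lay in the single well named above. Mmp8 (27.1, 71.8 and 34.5) and Mmp9 (19.5, 47.2 and 21.7), both of the list used for tertiary granules, were highest in the middle class. Cxcr2 (17.3, 17.4 and 12.04) and Rac2 (36.8, 24.6 and 30.5) had overlapping intervals in all 3 classes. Primary granule genes were at 0 in the low and the high wells.

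**Figure D5:**
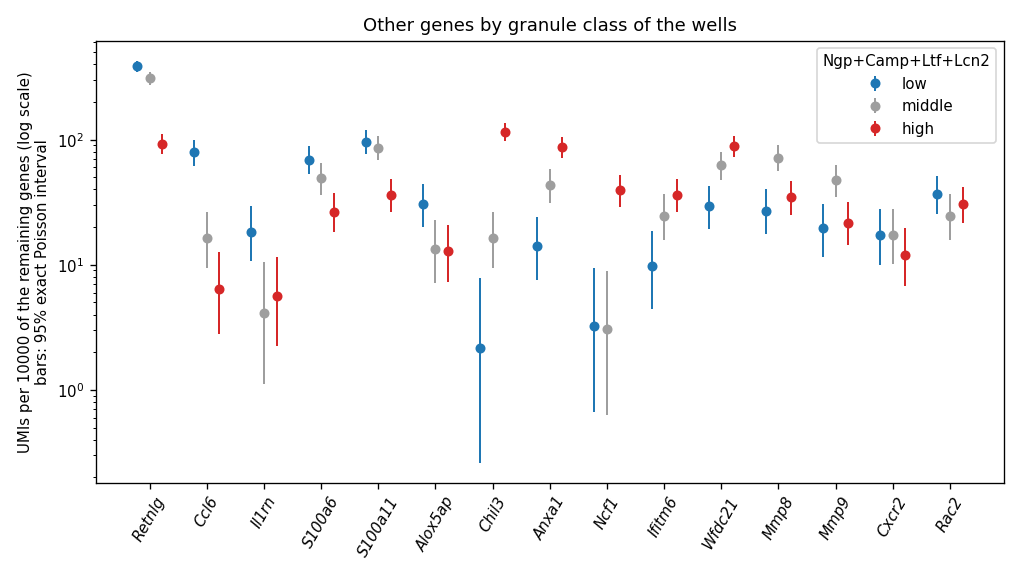
UMIs per 10000 of the remaining genes (log scale) of 15 genes in neutrophil wells with low (32 wells), middle (27) and high (35) levels of Ngp, Camp, Ltf and Lcn2; bars are exact 95% Poisson intervals, which cover counting error only. The points of Retnlg, Ccl6, S100a6 and S100a11 are ordered from low (highest) to high, those of Chil3, Anxa1, Ifitm6 and Wfdc21 the other way over all wells, and those of Mmp8 and Mmp9 are highest in the middle class.

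The classes were not spread alike over the libraries. AB5864 had 15 low, 15 middle and 19 high wells, AB5867 had 5, 6 and 13, and AB5876 had 4, 4 and 2. Of the 9 wells of AB5865, 8 were low, 1 was in the middle and none was high. Summed, the 4 granule genes were at 132 per 10000 in AB5865 (exact Poisson interval 95.9 to 177) and at 976 to 1114 in the other 4 libraries, while Retnlg was at 405 (339 to 479) in AB5865 and at 0 to 255 elsewhere. The 9 wells of AB5865 had a median of 240 UMIs, the lowest of the libraries, and its 3 wells of at least 500 UMIs had Ngp at 89.6 and Retnlg at 498 per 10000, against 452 and 182 in the 7 such wells of AB5876.

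Whether shallow wells carry other genes than deep ones could be tested in AB5864 (35 wells under 500 UMIs and 14 of 500 or more) and AB5867 (18 and 6). Of 58 genes tested none was higher in shallow wells by edgeR, also at an unadjusted p under 0.05, by edgeR or DESeq2. Lower in shallow wells were 3 (5.17%), named after their values were seen: Camp (-0.91 ± 0.22, edgeR adjusted p = 0.0034), Ngp (-0.75 ± 0.18, edgeR adjusted p = 0.0034) and the mitochondrial rRNA mt-Rnr1 (-0.96 ± 0.27, edgeR adjusted p = 0.017). Ngp was at 283 per 10000 in shallow and 552 in deep wells of AB5864, but at 463 and 443 in AB5867. DESeq2 and edgeR without the library block called none of the 58, so the difference rests on the choice of fit. Retnlg was at 281 and 224 in AB5864 and at 134 and 70.6 in AB5867 and did not pass.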

How the data were processed

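The authors sorted single CD45 and CD11b cells, with doublets excluded in the sort, into 384-well plates, prepared MARS-seq libraries and sequenced them on a NextSeq 500. Per the submitters' processing notes, bcl2fastq 2.15.0.4 and the mm10 build were used; no aligner is named in the sources read. The deposited values are UMI counts of each gene in each well, not normalized, with the plate position and cell number of each well; 380 wells per library were sorted with a cell and 4 left empty. Every column was assigned to a library (0 left aside), and no doublet caller was run.

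All non-spike-in UMIs of a well with 1 cell gave its depth (minimum 200). Sums per library and class were tested with edgeR 4.0.16 (R 4.3.3; filterByExpr, TMM, robust quasi-likelihood test, library block, Benjamini-Hochberg adjustment, threshold 0.05) over libraries with at least 5 wells per class; DESeq2 1.42.0 was an alternative. Both sums of a library share a plate, which is why the library is the block. SE is the absolute log2 fold change over the square root of F. Measures per well were compared by an exact two-sided sign-flip permutation test over libraries (scipy 1.17.1), adjusted over 4 measures. Wells were thinned to 200 UMIs with a fixed seed. The fits were also run on simulated counts of a fixed dispersion, in which libraries differed only in size and rises and falls had equal odds. That run does not cover differences between libraries or the shift with scaling seen here. Genes at 0 were bounded with 3 counts summed over the wells of the group. RNA content per spike-in was not tested, since only 3 spike-in UMIs were counted in all.

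Named genes were the members of the neutrophil lists, up to 4 genes by UMIs of each list of another cell type, and the 10 largest rises and falls that held in every library tested, without mitochondrial and ribosomal protein genes, Gm42418 and Gm26917; other names are said to be chosen after their values were seen. The wells and lists were chosen with earlier results of these data known, and the granule limits of 200 and 1000 per 10000 after these values were seen. Gene positions were taken from GENCODE (GRCm38), promoters from RefSeq. Alternatives covered scaling, filter, block, minimum depth, share, comparison wells and each library left out. Some members of the lists are counted in them but not reported here by name.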

Additional observations from a re-analysis of the deposited data

Results flagged for a closer look

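Among the 36 values examined for 1 library apart from the others (Dixon's test over the 4 libraries with at least 5 neutrophil wells; chance flags about 1 in 20 groups), 3 were flagged. The sum of Ngp, Camp, Ltf and Lcn2 was 132 per 10000 in AB5865 and at least 984 in the other 3, a gap of 0.867 of the range. Ngp alone was 54.0 per 10000 in AB5865, with a gap of 0.857. S100a6 was highest in AB5876 at 56.4 per 10000, with a gap of 0.833. The first values share the Ngp counts and are no separate evidence. AB5865 also had 9 neutrophil wells of a median of 240 UMIs, the lowest of the libraries; the part of depth in its values was not tested.

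Below the minimum depth, 25 of the 257 wells from 100 to under 200 UMIs, 9.73% (exact interval 6.39 to 14.0%), met the share of S100a8 and S100a9, close to the 10.8% from 200 to under 300 UMIs. They were left out of every comparison, and the empty wells held 3 UMIs of both genes among 320.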

How the results depend on the processing

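The 94 rises and 329 falls depended on the settings. With library sizes in place of TMM there were 154 and 189, without a filter on low counts 47 rises, without the library block 213 falls (of 787 genes tested; 127 rises), and with a minimum of 500 UMIs 62 and 115. Leaving out each library gave 56 to 96 rises and 122 to 329 falls, the fewest without replicate 2 (56 and 122) and replicate 5 (57 and 132), and 191 falls without replicate 3. Replicate 1 was in no fit, so leaving it out changed nothing. Both classes of a library were paired by the library block in the fits and by the sign-flip test in the measures per well. The 3 genes lower in shallow wells fell to 0 with DESeq2 (3 at an unadjusted p under 0.05), 0 without the filter (0) and 0 without the block (1), and stayed 3 without replicates 1, 3 and 5; without replicate 2 or 4 the fit could not be made. There were 61 neutrophil wells with a minimum of 300 UMIs and 30 with 500, and 45 (without replicate 2) to 92 without a library, while the mean share stayed between 3.84 and 8.55%. Of 962 refits of called named genes, 886 kept the call and 76 lost it, none with a change of sign. The 886 include 72 without replicate 1, which repeat the main fit and had to keep the call. Settings in which a called gene no longer reached the test are not among the 962. The 4 measures per well kept their direction throughout, with UMIs per well nearest to equal at a minimum of 500 UMIs (log2 ratio -0.13). The alternatives of the spike-in measure were not run. Depth limits what genes of few UMIs can show.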

Other observations

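Beyond the lists, and chosen after their values were seen, further genes were higher in the neutrophil wells of all 4 libraries tested. Those with few UMIs in other wells, such as Hdc, Padi4 and Slpi, passed the filter on low counts only through the neutrophil wells. Hdc, which makes histamine, had 17 UMIs against 4 in the other wells (log2 fold change 6.05 ± 1.19, SE; edgeR adjusted p = 1.7e-05), Padi4, the histone-citrullinating deiminase, 12 against 3 (5.45 ± 1.41, edgeR adjusted p = 0.0017), and Slpi, the secretory leukocyte protease inhibitor, 17 against 11 (4.63 ± 1.21, edgeR adjusted p = 0.0019). The row of Mir7678, which lies within Slpi, had 61 against 21 and its reads and those of Slpi cannot be told apart. Pygl, the liver-type glycogen phosphorylase (4.99 ± 0.95), Gda, guanine deaminase (4.75 ± 0.76), the surface glycoprotein Cd24a (4.41 ± 0.81), and Ltb4r1, a leukotriene B4 receptor (3.59 ± 1.20), were higher as well. Txn1, thioredoxin (2.38 ± 0.59), Prdx5, a peroxiredoxin (2.16 ± 0.58), Gsr, glutathione reductase (3.39 ± 0.97), and Taldo1, transaldolase (2.21 ± 0.67), were higher too. Lta4h, which makes leukotriene B4, was higher in 3 of the 4 (2.81 ± 0.88, edgeR adjusted p = 0.010).

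Of the falls that held in every library tested, Clptm1 had the largest bound, with 0 UMIs in neutrophil wells against 2213 in the other wells of the 4 libraries.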
